A study of Homo sapiens with 4 samples.

Results

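The nuclear genes for respiratory complexes II, III, IV and V and for cytochrome c were examined in polyadenylated RNA of H9, an embryonic stem cell line of human origin that has long been established. Members were taken by gene symbol: the 4 SDH subunits of complex II, the UQCR genes and CYC1 of complex III, CYCS, the structural COX subunits of complex IV, and every gene whose symbol begins with ATP5 for complex V, without pseudogenes. The rule took 50 genes of the 60671 in the table, 4 for complex II, 9 for complex III, 1 for cytochrome c, 16 for complex IV and 20 for complex V. One of the complex V rows, ATP5MF-PTCD1, is a readthrough transcript that joins ATP5MF to its neighbour.

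The series holds 4 libraries in 2 groups of 2. Cells of the first group had the genotype control, and the labels do not say whether they carried an empty vector. The other group, called KO+OE here, carried CRISPR/Cas9 edits in the CFIm25 gene together with overexpressed 3Flag-CFIm25, and both groups were cultured in mTeSR medium with no treatment. CFIm25, encoded by NUDT21, belongs to cleavage factor I, which acts when the 3′ end of an mRNA is formed. The sample titles call the edit a knockout and the series title a knockdown, and by the study's own description the rescued line came from 1 edited clone with a shortened, reduced protein and received the tagged gene from a lentivirus under the EF1 promoter. Edited cells without re-expression were not analysed here, so the edit and the re-expression cannot be told apart. Nothing in the labels says whether libraries of a group came from separate cultures, so every p-value measures only the spread between these libraries, which may be technical.

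Oxidative phosphorylation takes place at the inner mitochondrial membrane. Complex II (succinate dehydrogenase) links the citric acid cycle to the chain by passing electrons from succinate to ubiquinone, complex III (cytochrome bc1) moves them on to cytochrome c, and complex IV (cytochrome c oxidase) hands them to oxygen. Complexes III and IV pump protons, and complex V (ATP synthase) lets protons return through a rotating ring to make ATP. Complex II is built from nuclear genes only, whereas complexes III, IV and V combine nuclear subunits with subunits from the mitochondrial genome. Several complex IV subunits and subunit c of ATP synthase come in isoforms from separate genes, some of them used mainly in heart and skeletal muscle, lung or testis. Pluripotent stem cells draw much of their ATP from glycolysis and respire less than many differentiated cells.

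Values were taken as TPM, the share of a transcript in its library corrected for length. The lengths used, and how reads shared between genes were counted, are not given in the sources used here. Levels of different genes can therefore be set side by side only roughly. Each column summed to between 986853 and 987078 TPM, and between 12179 and 12332 genes reached 1 TPM in a library. No counts were given, so depth is unknown. NUDT21 stood at 161 and 152 TPM in control against 162 and 157 TPM in KO+OE, and the groups overlapped. This level does not check the labels, because endogenous and lentiviral NUDT21 RNA are not separated in a gene row. The labelled cell type was matched by all 6 pluripotency markers (POU5F1 at 2164 to 2212 TPM, NANOG at 15.9 to 19.9 TPM), whose summed level was 3192 to 3202 TPM in control and 3166 to 3189 TPM in KO+OE. Of 21 markers of other cells found in the table only COL1A1, TNNT2 and THY1 passed the filter on low values, and 5 were at 0 in every library. The 21 together, most of it THY1, which stem cells also carry, ran from 1293 to 1419 TPM in control and from 1354 to 1407 TPM in KO+OE, and its part in the results was not tested.

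Of the 50 members, 46 averaged 1 TPM or more and were compared between the groups. They were abundant RNAs, with a median level of 174 TPM against 7.77 TPM over all 12319 genes tested. The median was 64.0 TPM in complex II, 111 TPM in complex III, 395 TPM in complex IV and 183 TPM in complex V. Within each complex the subunits were far from equal, although the finished enzymes hold them in fixed proportions. SDHC was 14.9 times as high as SDHD in complex II, and UQCRH was 20.8 times as high as UQCRB in complex III. Ratios between genes, here and below, also carry any error in the lengths used, which was not tested. The order of the 45 tested members without the readthrough row was nearly identical in all libraries, with Spearman's rho between 0.996 and 0.999 for each pair of libraries. This rho is a description across genes, which share a library and are not independent.

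**Figure D1:**
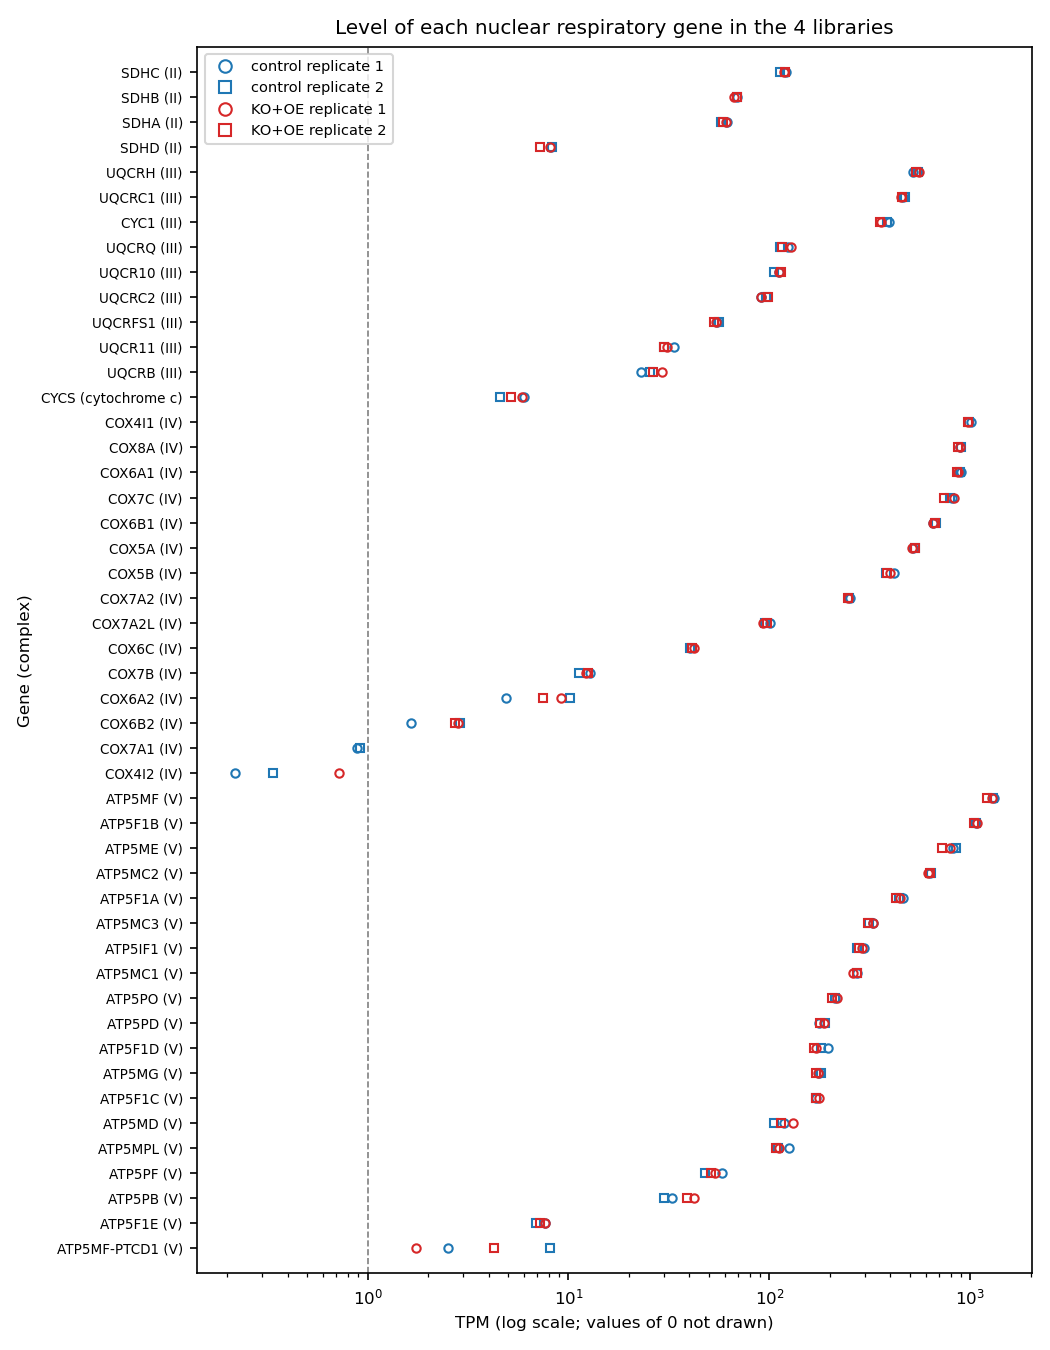
TPM of each member in each library on a log scale, grouped by complex and ordered by mean level; circles and squares are replicates 1 and 2, blue is control and red is KO+OE, the dashed line is the 1 TPM filter, and values of 0 are not drawn. The 4 symbols of a gene lie close together for most members, while the genes of a complex spread over more than a factor of 10.

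Between the groups the members differed little. With limma on log2(TPM + 1) and Benjamini-Hochberg adjustment over all genes, 0 of the 46 members passed an adjusted p of 0.05, where 1 gene of the 12319 (0.00812%) did, and the smallest adjusted p of a member was 0.908. At an unadjusted p under 0.05 there were 4 members, or 8.70% of those tested, beside 5.33% of all genes tested. They were ATP5PB, which was higher in KO+OE, and CYC1, ATP5F1D and ATP5ME, which were lower. Leaving out control replicate 1 left 1 such member and leaving out KO+OE replicate 2 left 2, whereas 6 were found without control replicate 2.

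The direction of the members was mixed. Their log2 fold change is a difference on the log2(TPM + 1) scale that understates the change of low genes. It was above 0 for 17 and below 0 for 29 (63.0%, beside 54.5% of all genes tested). This split became 22 and 24 when the libraries were rescaled by median ratios. Both KO+OE libraries lay above both control libraries for 4 members (8.70%, beside 14.5% of all genes tested) and below them for 13 (28.3%, beside 19.6%). The median log2 fold change was -0.02 for the members and -0.01 for all genes tested. By complex it was -0.01 in complex II, 0.02 in complex III, -0.02 in complex IV and -0.02 in complex V. With 1 library left out in turn, it ran from -0.03 to 0.01 in complex II, from -0.03 to -0.01 in complex III and from -0.05 to 0.02 in complex V, so the sign turned in each of these, and from -0.03 to -0.01 in complex IV.

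The spread between these libraries left room for only small differences in most members. For 38 of the 46 the 95% confidence interval lay wholly within a 1.25-fold difference in either direction, which is 82.6%, beside 36.3% of all genes tested. These shares are not like for like, since the median level was 174 TPM in the members and 7.77 TPM over all genes tested. The median standard error was 0.05 for the members and 0.12 for all genes tested on the log2 scale. The other 8 were SDHD, UQCRB, CYCS, COX6A2, COX6B2, ATP5MD, ATP5PB and ATP5MF-PTCD1, and all but ATP5MD had a mean under 40 TPM. KO+OE replicate 2 was the lowest of the 4 libraries for 16 of the 46 members, and for 30.2% of all genes tested. Control replicate 2 was the lowest for 14 members. The median deviation of KO+OE replicate 2 from the gene means was -0.03 in the members, against -0.02 over all genes tested.

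**Figure D2:**
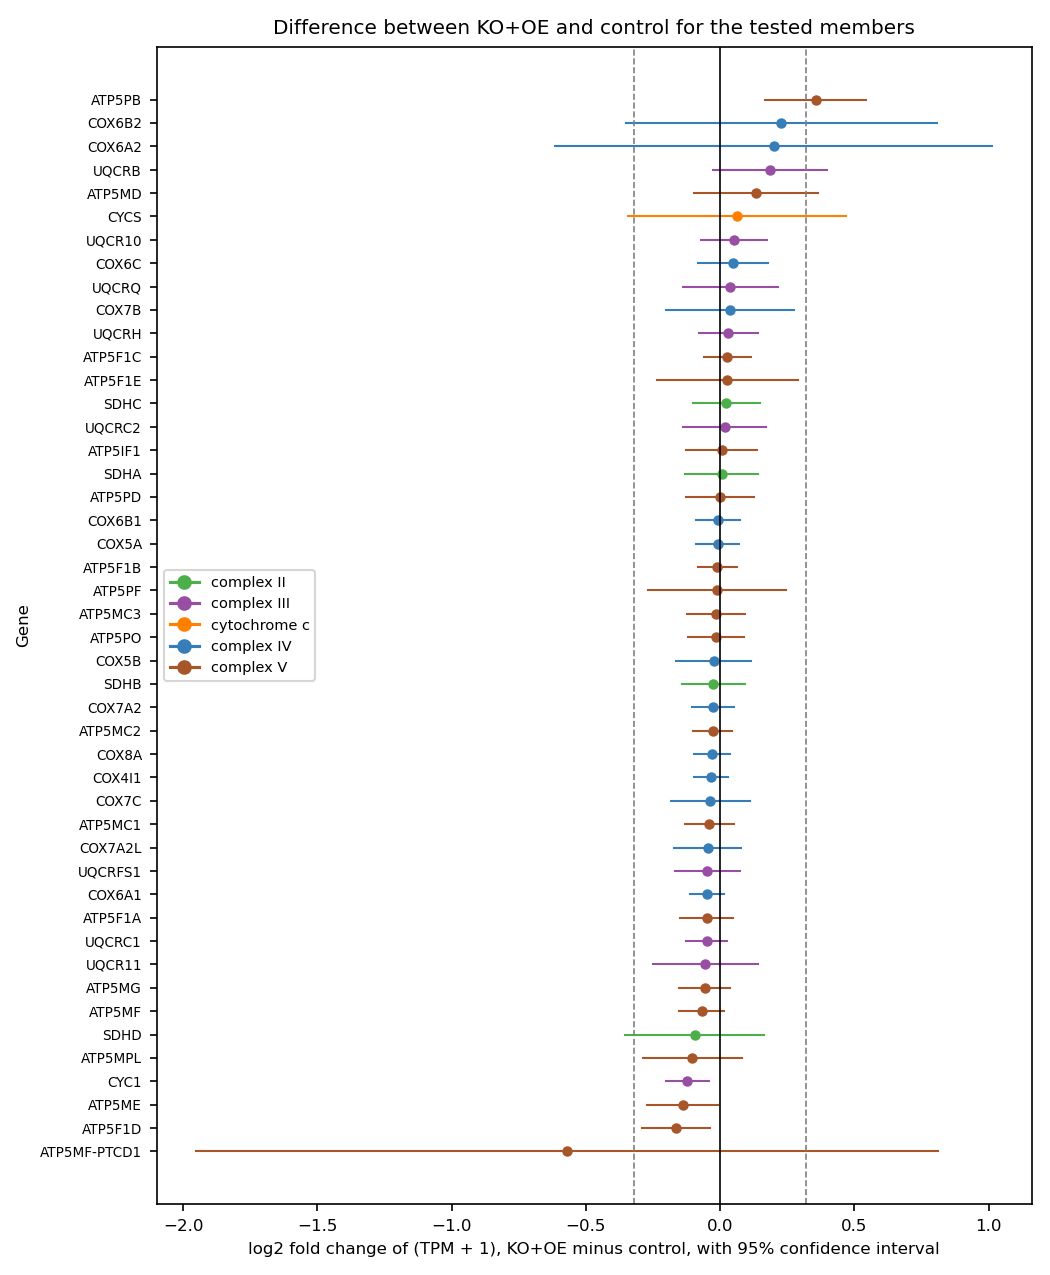
Log2 fold change of (TPM + 1), KO+OE minus control, for the 46 tested members, sorted; points are limma estimates, lines are 95% confidence intervals, colours are complexes, and dashed lines mark a 1.25-fold difference. ATP5PB at 0.36 is the highest and ATP5MF-PTCD1 at -0.57 the lowest, and only ATP5PB, CYC1, ATP5ME and ATP5F1D have intervals that leave out 0.

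In complex II the catalytic pair and 1 of the membrane anchors were well above the other anchor. SDHA, the flavoprotein that oxidises succinate, was at 61.3 and 57.6 TPM in control against 60.5 and 58.7 TPM in KO+OE. SDHB, the iron-sulfur subunit, was at 69.2 and 68.8 TPM in control against 66.3 and 69.3 TPM in KO+OE. Its ratio to SDHA stayed close, with SDHA at 0.836 to 0.912 of SDHB in every library. The anchors SDHC and SDHD together hold the heme of the complex. SDHC was at 121 and 113 TPM in control against 118 and 120.0 TPM in KO+OE. SDHD was at 8.16 and 8.25 TPM in control against 8.07 and 7.20 TPM in KO+OE, so both KO+OE libraries lay below both controls. The log2 fold changes were 0.01 for SDHA, -0.02 for SDHB, 0.02 for SDHC and -0.09 for SDHD, whose 95% confidence interval ran from -0.35 to 0.16. The 4 unadjusted p-values from limma were at least 0.393.

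The levels in complex III ran from 539.5 TPM in the mean for UQCRH to 26.0 TPM for UQCRB. Its hinge protein UQCRH, an acidic subunit that contacts cytochrome c1, was the highest at 517 and 551 TPM in control against 557 and 534 TPM in KO+OE. The core proteins form the matrix arm and were unequal, with UQCRC1 at 462 and 475 TPM in control against 449.7 and 454 TPM in KO+OE. UQCRC2 was at 90.8 and 96.4 TPM in control against 90.8 and 98.9 TPM in KO+OE. UQCRC1 was thus 4.60 to 5.08 times as high as its partner in each library.

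CYC1 and UQCRFS1 carry electrons within the complex, as cytochrome c1 and the Rieske iron-sulfur protein. CYC1 was at 396 and 383 TPM in control against 359 and 356 TPM in KO+OE. The groups did not overlap, and both KO+OE values were close to each other. Its log2 fold change was -0.12 (95% confidence interval -0.20 to -0.04, standard error 0.03), with an unadjusted p of 0.0108 and an adjusted p of 0.928 from limma. Over 14 settings of the fit its unadjusted p was under 0.05 in 12. UQCRFS1 was at 54.8 and 56.4 TPM in control against 54.4 and 53.1 TPM in KO+OE, and its log2 fold change was -0.05. Names of UQCRFS1 pseudogenes were carried by 3 rows, of which 1 was above 0 and reached 18 TPM. The UQCRFS1 level is therefore uncertain, since the counting of shared reads is not given.

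The small supernumerary subunits of complex III ranged widely. UQCRQ was at 113 to 128 TPM and UQCR10 at 105 to 114 TPM over the 4 libraries, and in both the groups overlapped. UQCR11 was at 33.5 and 29.7 TPM in control against 30.8 and 29.9 TPM in KO+OE. UQCRB, the lowest of the complex, was at 23.1 and 25.4 TPM in control against 29.0 and 26.4 TPM in KO+OE. Both of its KO+OE libraries were above both controls, with a log2 fold change of 0.19 (95% confidence interval -0.02 to 0.40), an unadjusted p of 0.0726 and an adjusted p of 0.931 from limma. The other 3 had log2 fold changes between -0.06 and 0.05.

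CYCS, the mobile carrier between complexes III and IV, was among the scarcest members at 6.01 and 4.55 TPM in control against 5.89 and 5.16 TPM in KO+OE. CYC1, its electron donor, was 60.9 to 84.2 times as high. CYCS has many processed copies in the genome, and 41 rows of the table carried names of CYCS pseudogenes, of which 3 were above 0 in any library and the highest reached 0.56 TPM. How reads shared between a gene and its copies were counted is not given in the sources used here, so the CYCS level is uncertain.

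Among members that passed the filter, complex IV had the highest median level of the complexes, with 3 of its members below the filter left out. COX4I1, the common isoform of subunit 4, was at 1009.7 and 988 TPM in control against 977 and 975 TPM in KO+OE. COX8A was at 863 to 894 TPM, COX6A1 at 857 to 897 TPM, COX7C at 739 to 827 TPM and COX6B1 at 650.1 to 674 TPM across the libraries. These nuclear subunits surround a catalytic core that the mitochondrial genome encodes. COX5A, on the matrix side, was at 513 to 531 TPM, and COX5B, which binds zinc, was at 379 to 418 TPM. COX4I1, COX8A, COX6A1 and COX7A2 were lower in both KO+OE libraries than in both controls, with log2 fold changes from -0.05 to -0.03 and unadjusted p-values from limma of at least 0.109. No subunit of the complex reached an unadjusted p of 0.05.

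Not all obligatory subunits of complex IV were abundant. COX6C was at 40.1 and 40.4 TPM in control against 42.3 and 41.0 TPM in KO+OE. COX7B, a subunit needed for assembly, was at 12.9 and 11.3 TPM in control against 12.3 and 12.5 TPM in KO+OE. COX5A was 40.4 to 46.9 times as high as COX7B, and COX5B was 9.37 to 10.4 times as high as COX6C. COX6C was higher in both KO+OE libraries (log2 fold change 0.05, unadjusted p 0.394 from limma), and 17 rows carried names of its pseudogenes, of which 1 was above 0.

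The isoforms of complex IV stood far apart, in every library in favour of the common form. COX6A1 was 87.8 to 184 times as high as COX6A2, the heart and muscle form, which was at 4.87 and 10.1 TPM in control against 9.18 and 7.47 TPM in KO+OE. COX6B1 was 231 to 397 times as high as COX6B2, the testis form, which was at 1.64 and 2.90 TPM in control against 2.81 and 2.71 TPM in KO+OE. In both minor forms control replicate 1 was the low library. Their log2 fold changes were 0.20 (95% confidence interval -0.61 to 1.01) and 0.23 (95% confidence interval -0.35 to 0.81), and without control replicate 1 they turned to -0.26 and -0.05.

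For subunits 4, 7A and 7B the minor form did not pass the filter, so no ratio was tested. COX4I2, the lung form, was at 0.22 and 0.34 TPM in control against 0.72 and 0 TPM in KO+OE, beside COX4I1 at 975 to 1009.7 TPM. COX7A1, the heart and muscle form, was at 0.89 and 0.92 TPM in control and was listed at 0 in both KO+OE libraries. COX7B2, the testis form, was listed at 0 in all 4 libraries. COX7A1 was the one absent or scarce form whose groups did not overlap, at a level below 1 TPM that the filter leaves out. Of the muscle markers, TNNT2 was at 6.69 and 7.86 TPM in control against 5.48 and 6.35 TPM in KO+OE. MYH6, MYH7, ACTN2 and CKM reached at most 0.50 TPM with overlapping groups, MYOG was at 0 in every library, and the part of muscle markers in the COX7A1 values was not tested.

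COX7A2 and its relative COX7A2L, which helps to join complexes III and IV into supercomplexes, were both well represented. COX7A2 was at 252 and 249 TPM in control against 246 and 247 TPM in KO+OE. COX7A2L was at 101 and 95.5 TPM in control against 93.2 and 96.9 TPM in KO+OE. COX7A2 was 2.50 to 2.64 times as high as COX7A2L in each library. COX5A, which is no isoform of COX5B in spite of its name, was 1.24 to 1.40 times as high.

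Ratios were compared between groups for 6 pairs in which both genes passed the filter, among them 2 pairs of the subunit c genes described next. In all 6 the groups overlapped. The exact two-sided permutation test over the 4 libraries gave p-values of 0.667 or 1, and after adjustment over the 6 pairs each was 1. With 2 libraries against 2 this test cannot go below 0.333. The differences in mean log2 ratio, KO+OE minus control, were -0.25 for COX6A1 over COX6A2, -0.24 for COX6B1 over COX6B2, and between -0.01 and 0.02 for the other 4. The wide pair values rest on control replicate 1, without which they were 0.22 and 0.02.

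**Figure D3:**
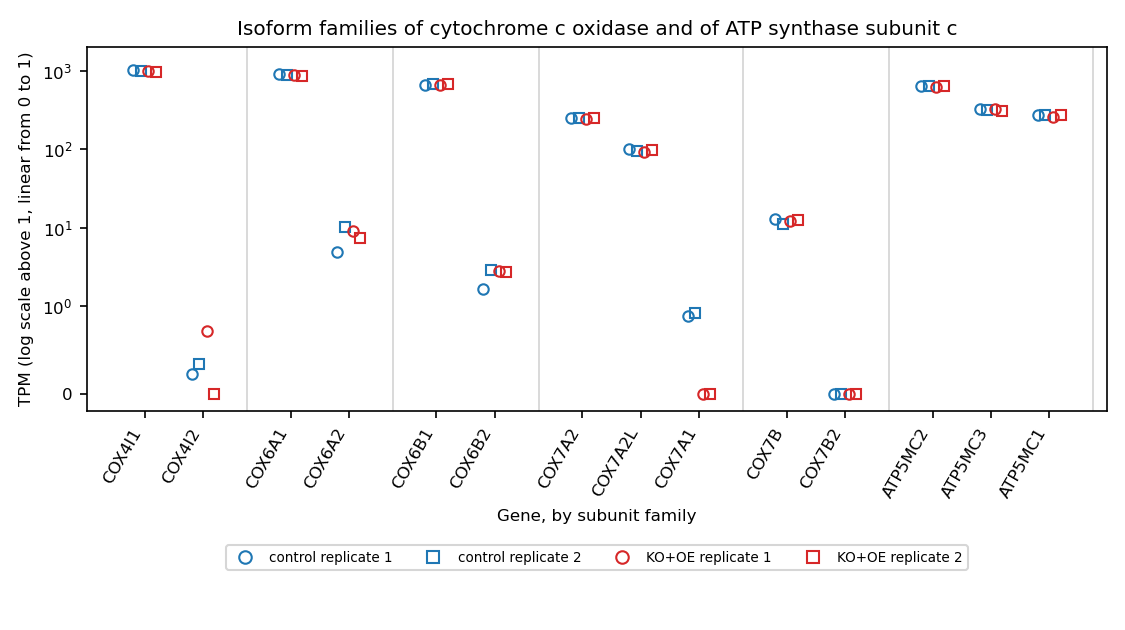
TPM of the isoform families in each library, on an axis that is logarithmic above 1 TPM and linear from 0 to 1; blue is control, red is KO+OE, circles and squares are replicates 1 and 2. The common forms COX4I1, COX6A1, COX6B1 and COX7A2 lie far above COX4I2, COX6A2, COX6B2 and COX7A1, while the 3 subunit c genes lie within a factor of 2.36 of each other in every library.

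The ring of ATP synthase is made of identical copies of subunit c, which 3 genes encode. They differ in the front part, which is removed on import into mitochondria, and share the mature protein. The coding sequences reflect this: the last 225 bases before the stop codon of ATP5MC2 were 88.9% and 81.3% identical to those of ATP5MC1 and ATP5MC3, and the 150 bases before them 30.7% and 36.0% identical. The last 120 coding bases of each gene are shown because they let a reader see how alike and how distinguishable the 3 RNAs are. They were read from the GENCODE 44 transcripts on GRCh37 (ATP5MC1 on chromosome 17, ATP5MC2 on chromosome 12, ATP5MC3 on chromosome 2), end with the stop codon, and have capitals at the 89 positions where all 3 are identical.
ATP5MC1: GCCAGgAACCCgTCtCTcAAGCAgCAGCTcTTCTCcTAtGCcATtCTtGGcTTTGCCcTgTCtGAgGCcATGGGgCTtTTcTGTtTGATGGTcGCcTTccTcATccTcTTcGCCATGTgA
ATP5MC2: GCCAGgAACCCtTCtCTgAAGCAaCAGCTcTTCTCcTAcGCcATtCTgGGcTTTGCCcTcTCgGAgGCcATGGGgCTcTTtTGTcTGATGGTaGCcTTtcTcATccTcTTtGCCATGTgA
ATP5MC3: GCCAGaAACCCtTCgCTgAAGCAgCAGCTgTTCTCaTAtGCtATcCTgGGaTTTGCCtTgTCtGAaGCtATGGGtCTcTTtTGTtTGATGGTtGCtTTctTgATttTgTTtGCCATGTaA

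The longest run of bases that the canonical transcript of ATP5MC2 shared exactly with that of ATP5MC1 or of ATP5MC3 was 17, and for the complex IV pairs it was between 9 and 26, shorter than the 150-base reads that the labels give for sequencing. ATP5MC2 was the main subunit c gene at 629 and 637 TPM in control against 613 and 629 TPM in KO+OE. ATP5MC3 was at 327 and 315 TPM in control against 327 and 308 TPM in KO+OE, and ATP5MC1 at 273 and 274 TPM in control against 259.8 and 272 TPM in KO+OE. The order of the 3 genes was the same in all libraries. ATP5MC2 supplied 51.1% to 52.1% of the summed subunit c RNA, ATP5MC3 25.5% to 27.2% and ATP5MC1 21.7% to 22.5%. The log2 fold changes were -0.03, -0.02 and -0.04, and the intervals lay within 1.25-fold.

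The F1 head of ATP synthase contains the catalytic beta subunits, the alpha subunits between them, and the gamma, delta and epsilon subunits of the central stalk. ATP5F1B (beta) was at 1065 and 1063 TPM in control against 1076 and 1037 TPM in KO+OE. ATP5F1A (alpha) was at 459.8 and 441 TPM in control against 445 and 425 TPM in KO+OE. The 2 proteins are used in equal numbers, and the beta RNA was 2.32 to 2.44 times as high as the alpha RNA. ATP5F1C (gamma) was at 171 and 169.9 TPM in control against 176 and 171 TPM in KO+OE, higher in both KO+OE libraries by a log2 fold change of 0.03 (unadjusted p 0.459 from limma).

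ATP5F1D (delta) was at 196 and 181 TPM in control against 170.1 and 166 TPM in KO+OE. The groups did not overlap, and control replicate 1 was the highest library. Its log2 fold change was -0.16 (95% confidence interval -0.29 to -0.04, standard error 0.05), with an unadjusted p of 0.0200 and an adjusted p of 0.928 from limma, and the unadjusted p was under 0.05 in 10 of 14 settings. The gene lies at chr19:1241751-1244825 in the RefSeq annotation of GRCh38.p14. ATP5F1E (epsilon), which sits beside delta in the stalk, was at only 7.60 and 6.93 TPM in control against 7.65 and 7.19 TPM in KO+OE. ATP5F1C was 22.5 to 24.5 times as high as ATP5F1E.

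ATP5IF1, the inhibitor that stops the enzyme from hydrolysing ATP, was at 296 and 271 TPM in control against 289.7 and 280.0 TPM in KO+OE. The groups overlapped, and the log2 fold change was 0.01 (95% confidence interval -0.13 to 0.14).

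The peripheral stalk holds the F1 head still against the turning ring, and its subunit b, ATP5PB, had the lowest p of all members. ATP5PB was at 32.8 and 30.0 TPM in control against 42.0 and 38.8 TPM in KO+OE. Both KO+OE libraries were above both controls by more than the gap between replicates. The log2 fold change was 0.36 (95% confidence interval 0.17 to 0.55, standard error 0.07), a ratio of 1.29 between mean TPM values, with an unadjusted p of 0.00455 and an adjusted p of 0.908 from limma. The unadjusted p stayed under 0.05 in all 14 settings, between 0.00267 and 0.0366, and leaving out a library moved the log2 fold change between 0.29 and 0.42. ATP5PB lies at chr1:111449464-111462773 in the RefSeq annotation of GRCh38.p14, and 7 rows carried names of its pseudogenes, of which 1 was above 0, at no more than 0.12 TPM.

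Its partners in the stalk gave other values. ATP5PO (OSCP) was at 212 and 212 TPM in control against 216 and 204 TPM in KO+OE, and ATP5PD (subunit d) at 177 and 189.9 TPM in control against 187 and 179 TPM in KO+OE. The groups overlapped for both. ATP5PO was 6.49 and 7.07 times as high as ATP5PB in control and 5.14 and 5.25 times as high in KO+OE. The groups did not overlap in this ratio, which restates the ATP5PB values above and is no separate result. ATP5PF (subunit F6) was at 47.9 to 58.1 TPM over the libraries, with a log2 fold change of -0.01.

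Among the membrane subunits around the ring, ATP5MF (subunit f) was the highest member of all at 1312 and 1302 TPM in control against 1279 and 1214 TPM in KO+OE. The log2 fold change was -0.07 (95% confidence interval -0.15 to 0.01, unadjusted p 0.0882 from limma). ATP5ME (subunit e), which lies near the dimer interface, was at 820.0 and 845 TPM in control against 793 and 721 TPM in KO+OE. Both genes were lower in both KO+OE libraries, with KO+OE replicate 2 the lowest. For ATP5ME the log2 fold change was -0.14 (95% confidence interval -0.27 to -0.01), with an unadjusted p of 0.0430 and an adjusted p of 0.928 from limma, and without KO+OE replicate 2 it was -0.07. Its unadjusted p was under 0.05 in 8 of 14 settings. ATP5ME lies at chr4:672436-674276 in the same annotation.

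The readthrough row ATP5MF-PTCD1 was at 2.51 and 8.07 TPM in control against 1.75 and 4.26 TPM in KO+OE, and had the lowest log2 fold change of the members at -0.57. Its interval, from -1.95 to 0.81, was the widest, and replicates within each group differed more than the groups did. Its exons overlap those of ATP5MF, so reads of the 2 rows cannot be cleanly told apart. ATP5MGL, a gene like subunit g, was listed at 0 in all libraries. ATP5MG, ATP5MD and ATP5MPL, which are small membrane subunits, had means between 113 and 175 TPM and log2 fold changes between -0.10 and 0.13.

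The TPM values were also summed over members. The 50 members added up to 14147 and 14037 TPM in control against 13949 and 13568 TPM in KO+OE, a change of the mean by -2.37%. The complex II sum was 259.9 and 247 TPM in control against 253 and 255 TPM in KO+OE, a change of 0.138%, and the groups overlapped. From control to KO+OE the mean differed by -1.53% in complex III, by -1.93% in complex IV and by -3.09% in complex V, and in these 3 the groups were apart. Without KO+OE replicate 2 these were -0.801%, -1.02% and -1.11%, and the difference for all members was -1.02%. TPM is a share of each library, and the mitochondrial genome took 21.0% and 21.1% of the RNA in control and 21.6% and 22.1% in KO+OE. When the libraries were rescaled without mitochondrial genes, the difference for all members was -1.38% and the groups overlapped for every complex.

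The mitochondrial genome subunits of the same enzymes lay in the other direction. The 6 genes for parts of complexes III, IV and V were summed. The sum was 141835 and 145182 TPM in control against 146966 and 151423 TPM in KO+OE, 3.96% more. Its largest part was MT-ATP8, at 59515 and 61673 TPM in control against 62083 and 62204 TPM in KO+OE. All 6 were higher in both KO+OE libraries than in both controls, as were 14.5% of all genes tested. MT-ATP6, the subunit a that faces the ring, was at 16265 and 16341 TPM in control against 16895 and 17287 TPM in KO+OE. Limma put the log2 fold change at 0.07 with an unadjusted p of 0.0195 and an adjusted p of 0.928, and 0 of the 6 passed the adjusted threshold. The 6 lie on 1 polycistronic genome, so their agreement in direction is not 6 separate observations.

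**Figure D4:**
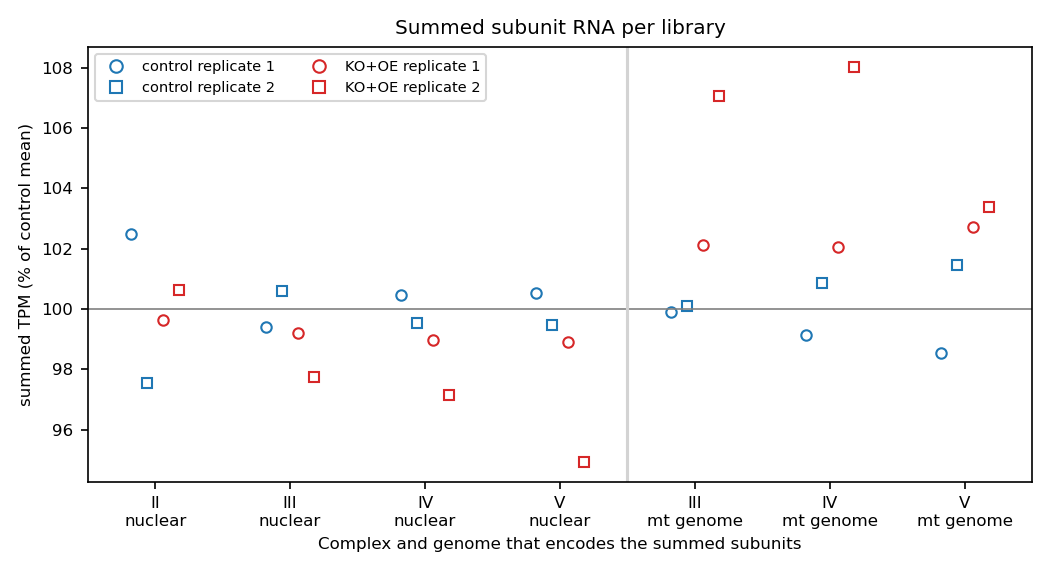
Summed TPM of the nuclear subunits of each complex (left) and of the mitochondrial genome subunits (right) in each library, as a percentage of the control mean; blue is control, red is KO+OE, circles and squares are replicates 1 and 2. The axis does not start at 0. KO+OE replicate 2 is the lowest library for nuclear complexes III, IV and V and the highest for the mitochondrial genome subunits.

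The promoters of the members were compared for short motifs of factors known to act on respiratory genes. RefSeq entries of GRCh38.p14, 250 bases before to 50 after the start, were found for 38 of the 50 members. The 12 members without an entry, among them CYC1, UQCRB, SDHC, COX6C and ATP5F1B, were not searched. Both strands were searched, and a gene counted once if any of its promoters held the motif. The NRF1 motif GCGCATGC was present in 9 of 38 members (23.7%) and in 4.89% of 15843 coding genes. Its centre CGCATGCG, which overlaps that motif, was present in 6 (15.8%, against 3.28%). The GABP motif CCGGAAGT was present in 10 (26.3%, against 6.97%), the YY1 motif AAGATGGCG in 3 (7.89%, against 3.21%) and the CREB motif TGACGTCA in 3 (7.89%, against 3.00%). The GC box GGGCGG was present in 23 (60.5%, against 64.3%) and TATAAA in 4 (10.5%, against 12.4%). These shares are descriptions of letters in a window and were not tested.

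The NRF1 windows below are shown since this motif was found in 4 of the groups: complex II, cytochrome c, complex IV and complex V. Complex III was searched only in part, since its members CYC1 and UQCRB had no promoter entry. Each lies before the start of its gene, is written 5′ to 3′ on the strand of the gene, and has the motif or its reverse complement in capitals.
SDHB, chr1:17054205-17054252, minus strand: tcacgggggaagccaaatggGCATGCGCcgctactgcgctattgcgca
SDHD, chr11:112086743-112086790, plus strand: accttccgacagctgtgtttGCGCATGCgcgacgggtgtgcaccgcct
CYCS, chr7:25125402-25125449, minus strand: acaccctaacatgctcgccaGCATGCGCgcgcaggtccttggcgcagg
COX5B, chr2:97645906-97645953, plus strand: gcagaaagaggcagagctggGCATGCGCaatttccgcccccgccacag
COX6A1, chr12:120437919-120437966, plus strand: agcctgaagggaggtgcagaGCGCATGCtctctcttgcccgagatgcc
ATP5ME, chr4:674327-674374, minus strand: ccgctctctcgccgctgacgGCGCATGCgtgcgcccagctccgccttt

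Members with the motif did not share a level or a direction. SDHD and CYCS were at 7.92 and 5.40 TPM in the mean, COX6A1 and ATP5ME at 879 and 795 TPM. The log2 fold changes of the 6 genes shown ran from -0.14 in ATP5ME to 0.06 in CYCS. ATP5F1C also held the motif, as did ATP5MC2 and ATP5PF before annotated starts that lie inside the gene. ATP5PB held none of the NRF1, GABP, YY1 and CREB motifs in this window, and only the GC box of those searched.

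The level of a member also went with features of its transcript. GC content and length were taken from the canonical transcript in GENCODE 44. Spearman's rho between level and GC content over 45 members was 0.398 to 0.408 in the 4 libraries, and over 12147 tested genes it was 0.264 to 0.277. The median level was 35.9 TPM in the 7 members under 40% GC, 53.7 TPM in the 8 from 40% to 45%, 152 TPM in the 12 from 45% to 50%, 661 TPM in the 11 from 50% to 55% and 269 TPM in the 7 at or above 55%. SDHD, UQCRB, ATP5PB and ATP5F1E were among the 7 with the lowest GC content. So were COX7A2L, ATP5MC3 and ATP5MG, with higher means of 96.6, 319 and 175 TPM. For length rho was -0.478 to -0.470, and CYCS at 5432 bases, ATP5F1E at 3610 and UQCRB at 8459 were long and low, while ATP5F1A at 5761 bases was at 443 TPM. These values describe genes of the same libraries, and the part of GC content, length or the annotation that the authors used in the levels was not tested. The number of pseudogene rows of a member had a rho of 0.000607 to 0.0122 with its level.

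**Figure D5:**
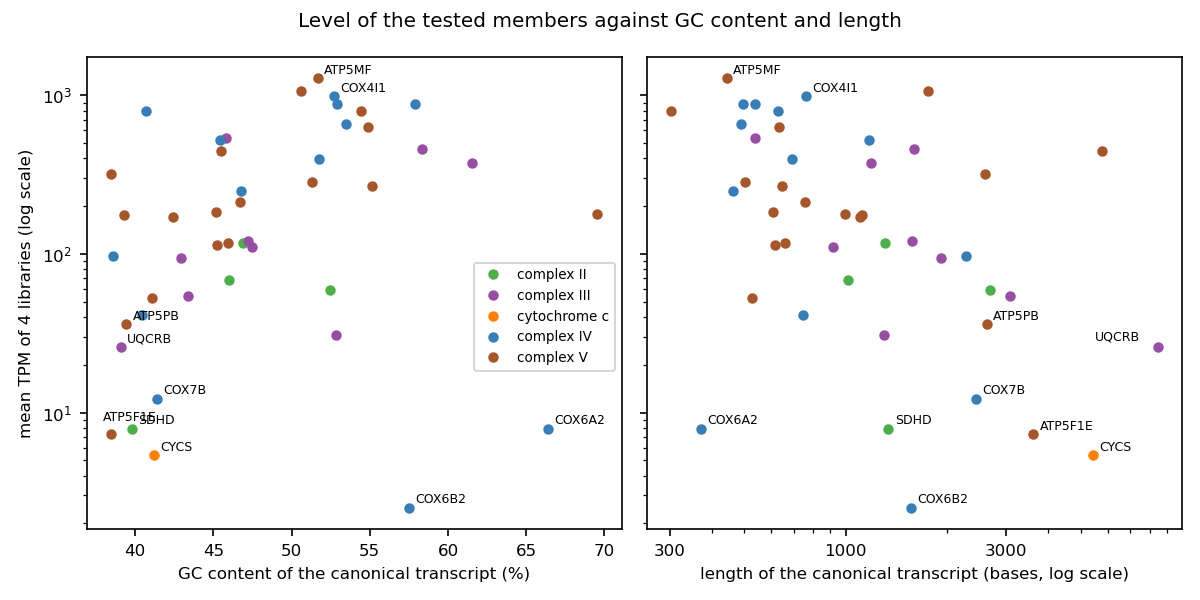
Mean TPM of the 45 tested members without the readthrough row (log scale) against the GC content of the canonical transcript in percent and against its length in bases (log scale); each point is a gene and colours are complexes. Low members such as SDHD, CYCS, ATP5F1E, COX7B and UQCRB lie at low GC content, and COX6A2 and COX6B2 are low at high GC content. ATP5MC3 at 319 TPM and ATP5MG at 175 TPM also lie at low GC content.

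Genes that assemble these complexes gave a similar picture. Of 37 assembly factors of complexes II to V, 36 were tested and LYRM7, a chaperone for the Rieske protein, did not pass the filter. At an adjusted p under 0.05 there were 0, and at an unadjusted p under 0.05 there was 1, beside 5.33% of all genes tested. FMC1, which helps to assemble F1, was at 24.0 and 21.3 TPM in control against 19.0 and 17.2 TPM in KO+OE, with a log2 fold change of -0.31 and an unadjusted p of 0.0209 from limma. The highest value was 0.35 in TMEM70, which helps to build ATP synthase, at 4.94 and 3.17 TPM in control against 4.75 and 6.02 TPM in KO+OE, with overlap. The lowest was -0.31 in UQCC1, a complex III factor, at 27.8 and 21.6 TPM in control against 18.2 and 21.0 TPM in KO+OE. Of the 36, 15 were above 0 and 21 below, with a median of -0.03, where 54.5% of all genes tested were below 0.

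Of 11 listed regulators of respiratory genes, 8 were tested and 0 passed an adjusted p of 0.05. Of these 8, 2 had values above 0 and 6 below, where 54.5% of all genes tested were below 0. For 5 of them both KO+OE libraries were below both controls, as they were for 19.6% of all genes tested. ESRRA, a nuclear receptor that acts with PGC-1 coactivators, was at 32.2 and 30.0 TPM in control against 26.5 and 23.7 TPM in KO+OE, with a log2 fold change of -0.30 and an unadjusted p of 0.0139 from limma (adjusted p 0.928). NRF1 was at 7.25 and 6.69 TPM in control against 6.22 and 6.14 TPM in KO+OE, with a log2 fold change of -0.15. TFAM, which packages the mitochondrial genome, was at 1.25 and 1.74 TPM in control against 0.69 and 0.90 TPM in KO+OE. PPARGC1A, GABPA and PPARGC1B did not pass the filter and reached at most 0.95 TPM.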

How the data were processed

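Poly(A)+ RNA from 2 control and 2 KO+OE libraries of H9 cells was sequenced by the authors. The submitters' processing notes name HISAT2, featureCounts, Subread, DESeq2 and hg38, without roles. The authors deposited 1 table of 60671 genes as TPM values, in which reads per gene are divided by length and scaled to a common total, rounded to 2 decimals. The header gives no unit, and TPM was inferred from nearly equal column sums and from the decimals. Counts and depth are unknown, so no counting error was computed. No other sample columns were in the table (0).

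Genes averaging 1 TPM or more were compared on log2(TPM + 1) with limma 3.58.1 (R 4.3.3, mean-dependent prior, group as the only term, two-sided), with Benjamini-Hochberg adjustment over 12319 genes. Ratios of gene pairs were compared by an exact permutation test. A further pair is not reported here and entered no count. Genes named were all members of complexes II, III and IV and CYCS, the isoform families, the F1 subunits and inhibitor, the extremes of level, p and fold change, members below the filter, and the extremes of the assembly factors. Other genes were named after their values were seen. Members and lists were chosen with earlier results of these data known. Alternatives were other pseudocounts (0.1 and 5), filters (none, and a mean of 5 TPM), scalings (median ratios, quantile normalization, without mitochondrial genes), no mean-dependent prior, the replicate block and leaving out each library. Transcript features came from GENCODE 44 on GRCh37, and gene positions and promoters from RefSeq on GRCh38.p14. All 50 members were matched to RefSeq genes by Ensembl identifier, or else by symbol or synonym, and 38 had a promoter entry. Python 3.11.15 was used for tables.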

Additional observations from a re-analysis of the deposited data

How the results depend on the processing

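In 14 settings, the main one included, 0 members passed an adjusted p of 0.05, and the smallest adjusted p of a member in any setting was 0.703, under the replicate block. The count of members at an unadjusted p under 0.05 was 4 in the main setting, 4 without the filter, with COX7A1 in place of ATP5ME, 1 without the mean-dependent prior, and 1 to 6 when a library was left out. In those fits the lone library of a group was assumed to vary like the other group. Over all genes 656 passed an unadjusted p of 0.05 in the main setting, 1314 of 26942 without the filter and 412 of 7393 with the filter at 5 TPM. The replicate number as a block gave 6 members at an unadjusted p under 0.05. Same-numbered libraries had a correlation of deviations of -0.05 over 12319 genes. This value, from 2 libraries per group, cannot settle whether same-numbered libraries were handled together. Adding UQCRHL gave no value, since its mean of 0.108 TPM is below the filter.

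The median log2 fold change of complex III was 0.032 without the mitochondrial genome, and that of complex IV was -0.012 with median ratios and -0.0098 without the mitochondrial genome. The summed level of complex III was then changed by -0.529%. When libraries were left out, the median was -0.032 to -0.015 in complex III (main 0.02, as a different gene became the median), -0.034 to -0.011 in complex IV and -0.050 to 0.016 in complex V. The sums changed by -2.27% to 2.67% for complex II and by -8.07% to 21.4% for cytochrome c.

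Values near 0 changed sign. With median ratios and without the mitochondrial genome the log2 fold change became 0.0062 and 0.0079 for COX6B1, 0.0038 and 0.0056 for COX5A, 0.0021 and 0.0038 for ATP5F1B, 0.012 and 0.014 for ATP5PD, and 0.0016 and 0.0034 for ATP5PF. With quantile normalization it became 0.0020 for SDHB, 0.0033 for ATP5MC3, 0.015 for ATP5PD and 0.0013 for ATP5PF. Leaving out libraries turned the log2 ratio differences of 5 pairs. Their ranges were -0.72 to 0.22 for COX6A1/COX6A2, -0.49 to 0.021 for COX6B1/COX6B2 and -0.011 to 0.052 for COX7A2/COX7A2L. For COX5A/COX5B, which are no isoforms, the range was -0.070 to 0.10, and for ATP5MC2/ATP5MC3 it was -0.073 to 0.050.

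Leaving out libraries also turned 23 of the 46 members tested. The ranges were -0.029 to 0.076 for SDHC, -0.056 to 0.0066 for SDHB, -0.038 to 0.050 for SDHA, -0.015 to 0.076 for UQCRH, -0.031 to 0.11 for UQCRQ, -0.043 to 0.078 for UQCRC2, -0.14 to 0.029 for UQCR11 and -0.11 to 0.23 for CYCS. In complex IV they were -0.12 to 0.045 for COX7C, -0.032 to 0.019 for COX6B1, -0.034 to 0.016 for COX5A, -0.096 to 0.047 for COX5B, -0.049 to 0.12 for COX7B, -0.26 to 0.66 for COX6A2 and -0.053 to 0.51 for COX6B2. In complex V they were -0.037 to 0.016 for ATP5F1B, -0.031 to 0.086 for ATP5F1E, -0.056 to 0.070 for ATP5IF1, -0.057 to 0.027 for ATP5MC3, -0.057 to 0.026 for ATP5PO, -0.052 to 0.051 for ATP5PD, -0.15 to 0.13 for ATP5PF and -1.25 to 0.12 for ATP5MF-PTCD1. The other 23 kept their direction in every setting in which they were tested, ATP5PB, CYC1, ATP5F1D and ATP5ME among them. The cause of these changes was not tested.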
